A study of Mus musculus with 4 samples.

Results

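The genes described here are the p53 family members Trp63 and Trp73 and a set of genes known as p53 targets or partners, in a pair of mouse neural stem cell lines that lack p53. The set names 35 genes. A gene was represented by the probe set that the array annotation maps to it alone and that has the highest mean over the 4 arrays. For 34 of the 35 genes such a probe set was found, out of 18193 genes on the array that have a probe set of their own, and Gdf15 was not analysed here. Together the 34 genes have 71 probe sets.

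NSCL61-sox11, the line that expresses the transcription factor Sox11, was compared with its parent NSCL61, with 2 Affymetrix arrays per line. Both lines are p53-/- on the strain C57BL/6, and the labels describe them as neural stem cells resembling glioma-initiating cells. The growth protocol gives neuroepithelial cells of the telencephalon at embryonic day 14.5, grown in both lines as floating spheres with bFGF, PDGF, insulin and forskolin. The submitters state that NSCL61-sox11 no longer formed tumours after transplantation and look to the genes that differ between the lines. From general knowledge of the line and not from the labels, NSCL61 also carries an activated HRas transgene. The sources used here do not give what drives Sox11 or whether NSCL61-sox11 is 1 clone. No label says whether separate cultures were behind the paired arrays of each line, and p-values therefore measure only the spread between arrays, which may be technical.

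The p53 protein is a transcription factor that cells stabilise after DNA damage or oncogene activity. It then raises genes that arrest the cell cycle, start apoptosis, repair DNA and adjust metabolism, and it raises its own inhibitor Mdm2, which closes a feedback loop. In the embryonic brain p53 restrains the proliferation and survival of neural progenitors, and its loss is a frequent event in glioma. p63 and p73 bind the same DNA elements, and many p53 targets also answer to other regulators such as FOXO factors, the unfolded protein response or growth factor signals. The comparison therefore asks which of these genes were expressed without p53, and which of them differed between the lines.

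Sox11 itself was measured at 7.74 and 7.97 (log2 level) on the NSCL61-sox11 arrays, against 5.09 and 4.82 on the NSCL61 arrays, higher in the line labelled as expressing it. These levels are of its brightest probe set. Its other tested probe sets were higher by 0.38, 0.50 and 2.80 log2 units. Values below are log2 levels of the deposited table, and differences are log2 fold changes of NSCL61-sox11 minus NSCL61 with the moderated SE of limma. A gene was called when its limma p, adjusted by the Benjamini-Hochberg method over 27022 probe sets, was under 0.05. Testing was limited to the brightest 60% of probe sets, those with a mean of at least 5.15. The brightest Sox11 probe set averaged 4.95 in NSCL61, below that level, so the size of its rise is uncertain. Levels of different genes come from different probes and are not compared with each other. Of the neural stem cell markers Sox2, Nes, Vim, Pax6, Msi1 and Cdh2 passed the level filter, while Fabp7 and Prom1 lay below it in both lines. Sox2 (-1.698), Pax6 (-0.447) and Vim (-0.211) fell, while Nes (0.045), Msi1 (-0.084) and Cdh2 (-0.099) were not called. Sox2 read 8.68 and 8.97 in NSCL61-sox11 against 10.29 and 10.75 in NSCL61. Scaling the arrays to the poly-A spike-in controls lowers every log2 fold change by 0.40 and moves the median of all genes tested to -0.42, and scaling to the hybridisation controls moves it to -0.24. Changes are given relative to the deposited scale, on which that median was -0.02.

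Of the 34 genes, 32 passed the level filter and 2, Trp63 and Eda2r, did not. Among those tested, 7 rose in NSCL61-sox11, 2 fell and 23 were not called. The genes that rose were the epithelial membrane protein gene Perp, the BH3-only gene Pmaip1, the death receptor gene Fas, the kinase gene Plk2, the stress regulator gene Sesn1, the lipid transfer gene Pltp and the cell cycle inhibitor gene Cdkn1a. Those that fell were the metabolic phosphatase gene Tigar and the ribonucleotide reductase gene Rrm2b. In these bulk samples fewer cells of a type and less RNA per cell cannot be told apart. The feedback genes Mdm2, Ccng1 and Ppm1d were not called on their representative probe sets.

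The counts stand against a large background. Of all 13084 genes tested, 19.2% were called, against 28.1% of the 32 tested here. Calls upwards made up 21.9% of the 32 genes, against 10.0% of all genes, and calls downwards 6.25%, against 9.19%. At least 2-fold rises were called for 6 of the 32, or 18.8%, and for 3.18% of all genes. Perp, Fas and the second probe set of Tnfrsf10b averaged below 5.15 in NSCL61 and passed the filter through their level in NSCL61-sox11. The genes of the set were also chosen with earlier results of these data known. These shares are therefore only a description of the genes that passed. Without a level filter all 34 genes were tested, and 7 were called upwards and 1 downwards, where 6.94% and 6.01% of 18193 genes were called. The median log2 fold change of the 32 genes was 0.14, against -0.02 for all genes tested, and the median of its absolute size was 0.28 against 0.16. Arrays of the lines did not overlap for 24 of the 34 genes, 16 of them higher and 8 lower in NSCL61-sox11. These are 47.1% and 23.5% of the 34, where 25.0% and 30.6% of all genes with a probe set did not overlap.

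**Figure D1:**
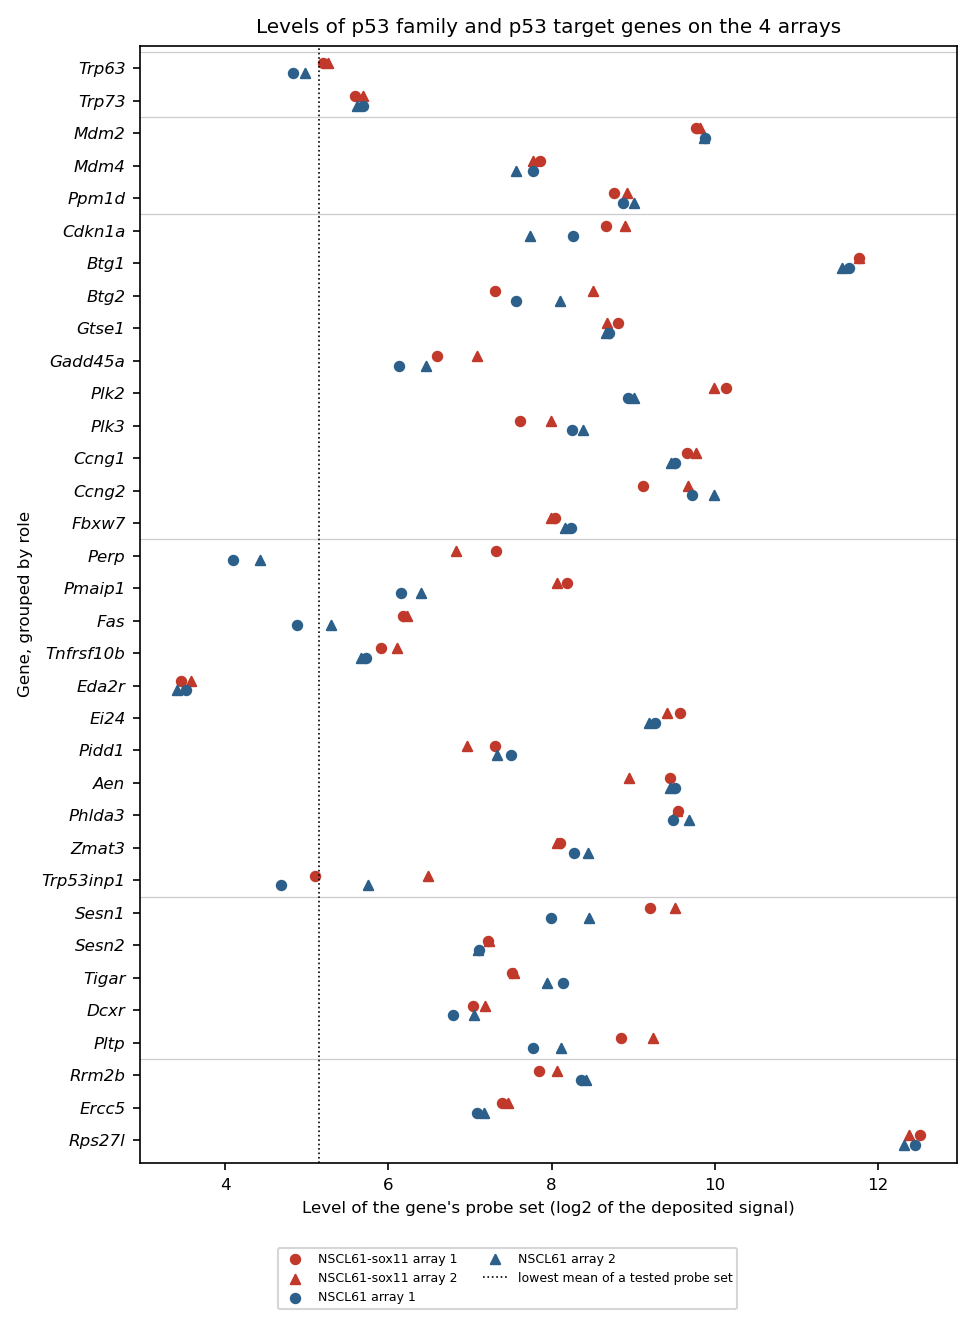
Log2 level of the representative probe set of each of the 34 genes (horizontal axis) on each array, with NSCL61-sox11 in red above NSCL61 in blue. Circles are array 1 and triangles array 2 of a line, grey lines separate the roles, and the dotted line at 5.15 marks the level filter. The 2 NSCL61 arrays of Perp lie left of that line and its 2 NSCL61-sox11 arrays lie right of it.

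**Figure D2:**
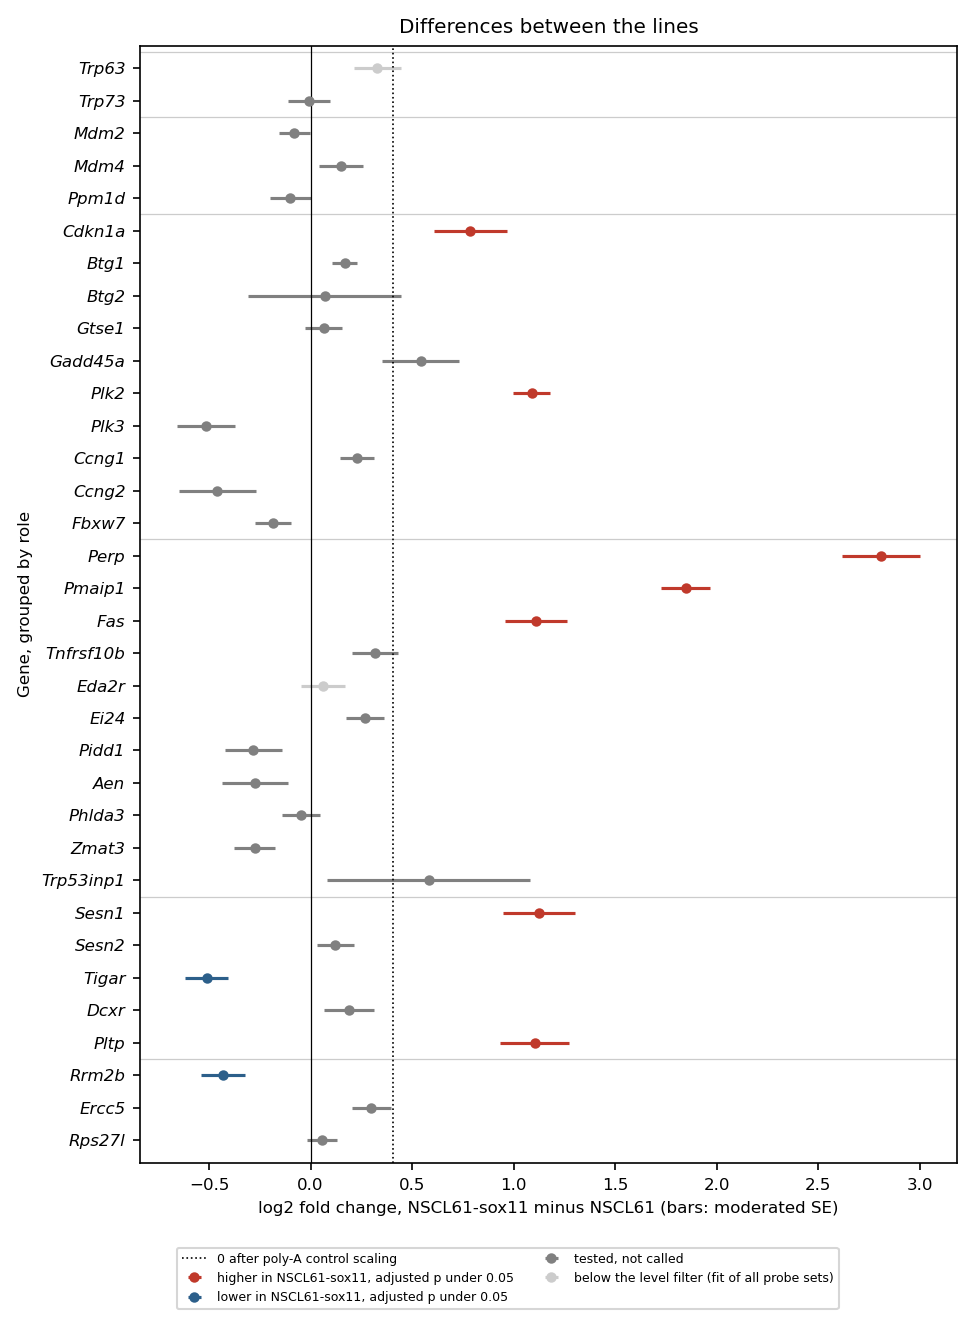
Log2 fold change of NSCL61-sox11 minus NSCL61 for each of the 34 genes, with bars of 1 moderated SE. Red and blue points are called, dark grey points are tested and not called, light grey points come from the fit without a level filter, and the dotted line marks where 0 would lie after scaling to the poly-A controls. Perp, at 2.81, and Pmaip1, at 1.85, lie farthest from 0.

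Promoter sequence was examined because these genes are grouped by a shared DNA-binding factor. RefSeq promoter windows of the build GRCm38.p6, taken here as the 250 bases before a transcription start, were found for 27 of the 34 genes, 36 windows in all. The other 7 genes, Perp, Pmaip1, Rrm2b, Trp63, Tnfrsf10b, Zmat3 and Trp53inp1, had no window and were not searched. Perp, Pmaip1 and Rrm2b among them were called. They were searched for the p53 half-site consensus, which reads the same on both strands. It was present in 9 of the 36 windows, or 25.0%, and in 7.13% of all 32851 windows. The genes were listed as known p53 targets, so this share is not independent of the choice. The genes with a match were Gadd45a, Aen, Ei24, Rps27l, Sesn1, Mdm2, Ccng1, Ppm1d and Cdkn1a. Of these 9 genes 2, Sesn1 and Cdkn1a, were called on their representative probe sets. Of the 27 genes with a window, which include the 9 and the untested Eda2r, 6 were called. Of all genes tested, 19.2% were called. Counts this small cannot tell whether a match goes with a call. Windows of 5 genes are printed 5′ to 3′, with half-site matches in capitals, because they hold a called gene with a match (Cdkn1a and Sesn1), a called gene without one (Plk2) and genes with a match that were not called (Mdm2 and Ccng1).
Cdkn1a (chr17:29090729-29090978, plus strand): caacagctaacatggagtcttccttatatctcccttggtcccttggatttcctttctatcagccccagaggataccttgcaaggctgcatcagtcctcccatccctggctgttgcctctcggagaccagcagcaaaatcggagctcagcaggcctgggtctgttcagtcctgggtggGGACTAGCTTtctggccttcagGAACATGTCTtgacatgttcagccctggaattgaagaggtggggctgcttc
Sesn1 (chr10:41887189-41887438, plus strand): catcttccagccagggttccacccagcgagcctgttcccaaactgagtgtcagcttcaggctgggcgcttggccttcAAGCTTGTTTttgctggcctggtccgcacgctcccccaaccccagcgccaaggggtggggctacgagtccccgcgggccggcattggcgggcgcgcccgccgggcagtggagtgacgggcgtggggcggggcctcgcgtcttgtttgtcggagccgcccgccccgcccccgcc
Plk2 (chr13:110394794-110395043, plus strand): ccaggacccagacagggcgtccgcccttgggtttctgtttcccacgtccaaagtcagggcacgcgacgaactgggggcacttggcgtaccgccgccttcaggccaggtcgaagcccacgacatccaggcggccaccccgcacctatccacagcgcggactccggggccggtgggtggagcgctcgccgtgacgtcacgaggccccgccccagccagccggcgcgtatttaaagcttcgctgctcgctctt
Mdm2 (chr10:117710759-117711008, minus strand): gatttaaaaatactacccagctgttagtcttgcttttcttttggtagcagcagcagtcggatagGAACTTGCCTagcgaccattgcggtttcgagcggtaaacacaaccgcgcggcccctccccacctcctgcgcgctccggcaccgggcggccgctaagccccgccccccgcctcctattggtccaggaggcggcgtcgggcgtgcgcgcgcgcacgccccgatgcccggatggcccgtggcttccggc
Ccng1 (chr11:40755287-40755536, minus strand): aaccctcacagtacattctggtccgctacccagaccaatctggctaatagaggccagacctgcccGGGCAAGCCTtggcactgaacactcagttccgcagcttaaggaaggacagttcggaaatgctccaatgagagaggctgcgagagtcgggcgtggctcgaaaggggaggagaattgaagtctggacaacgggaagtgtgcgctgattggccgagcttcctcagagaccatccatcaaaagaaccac

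In the Cdkn1a window the matches lie 73 to 64 and 51 to 42 bases before the start, and the matches do not overlap. This start lies 2790 bases upstream of the second annotated Cdkn1a start, whose window holds no match. Capitals mark full matches alone. Directly after the Cdkn1a match at 51 to 42, a stretch of equal length departs from the consensus only at its first base. The Sesn1 match lies 173 to 164 bases before the second of its annotated starts. The Mdm2 match lies 186 to 177 bases before the start and the Ccng1 match 185 to 176 bases before it. As background, p53 acts on Mdm2 mainly through elements in its first intron, which these windows do not cover. The letters ACAAAG, a core recognised by Sox factors, were searched on both strands of the same windows. They occurred in 3 of the 36 windows, or 8.33%, and in 16.5% of all windows. A match is a description of sequence, and the arrays do not measure binding.

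Neither of the p53 relatives was called on its representative probe set. Trp63, a master regulator of stratified epithelium, lay near the filter level at 5.20 and 5.26 in NSCL61-sox11, against 4.83 and 4.98 in NSCL61. The arrays of the lines did not overlap, and the fit without a level filter gave a difference of 0.33 (SE 0.12, limma adjusted p = 0.137). A second Trp63 probe set read 5.33 and 5.05 in NSCL61-sox11 and 4.10 and 4.41 in NSCL61. It was higher by 0.94 in the same fit (SE 0.15, limma adjusted p = 0.00915), and the remaining 2 Trp63 probe sets were not called there. All 4 stay low in both lines, so what they measure near the filter level is uncertain. Trp73, which is needed for hippocampal development and for ependymal cilia, read 5.60 and 5.69 in NSCL61-sox11 and 5.69 and 5.61 in NSCL61. Its lines overlapped, with a difference of -0.01 (SE 0.10, limma adjusted p = 0.968).

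The inhibitors of p53 were measured well above the filter level in both lines, and their representative probe sets were not called. Mdm2, the ubiquitin ligase that degrades p53 and is itself a classical p53 target, read 9.77 and 9.82 in NSCL61-sox11 against 9.88 and 9.87 in NSCL61. The difference was -0.08 (SE 0.08, limma adjusted p = 0.533). Mdm4, a relative of Mdm2 that masks the activation domain of p53, read 7.86 and 7.77 in NSCL61-sox11 against 7.77 and 7.56 in NSCL61. Its difference was 0.15 (SE 0.11, limma adjusted p = 0.413), and its 3 tested probe sets did not share a sign. Ppm1d, a phosphatase that reverses damage signalling, differed by -0.10 on its brightest probe set (SE 0.10, limma adjusted p = 0.566). On its second probe set Ppm1d read 8.63 and 8.59 in NSCL61-sox11 and 9.03 and 9.03 in NSCL61, and this probe set fell by 0.42 (SE 0.08, limma adjusted p = 0.0192).

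Among the 10 genes of cell cycle arrest and growth control, Plk2 and Cdkn1a rose and 8 were not called. Beside the counts of this and the following groups stands the 19.2% called of all genes tested. Plk2, a polo-like kinase of centriole duplication and neuronal activity, read 10.13 and 9.98 in NSCL61-sox11 and 8.94 and 9.00 in NSCL61. Both NSCL61-sox11 arrays lay about a log2 unit above both NSCL61 arrays. Plk2 rose 2.13-fold, by 1.09 on the log2 scale (SE 0.09, limma adjusted p = 0.000901). Its promoter window, printed above, holds no half-site match.

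Cdkn1a encodes p21, the inhibitor of cyclin-dependent kinases through which p53 stops the cell cycle. It read 8.67 and 8.90 in NSCL61-sox11 and 8.26 and 7.74 in NSCL61. The lines did not overlap, but the NSCL61 arrays lay farther apart than the gap between the lines. Cdkn1a rose 1.72-fold, by 0.79 (SE 0.18, limma adjusted p = 0.0313), and its second probe set differed by 0.68 (SE 0.21, limma adjusted p = 0.0795). The Cdkn1a call was lost without NSCL61 array 2 (0.53, limma adjusted p = 0.123), without NSCL61-sox11 array 2 (0.67, limma adjusted p = 0.0594) and with the mean of its probe sets (limma adjusted p = 0.0566). Over the 13 alternatives without a replicate block its adjusted p ran from 0.0122 to 0.319. In each result given without 1 array, that line is left with a single array, which is assumed to vary like the arrays of the other line.

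Plk3 and Ccng2 were lower on average in NSCL61-sox11 and were not called on their representative probe sets. Plk3, another polo-like kinase, read 7.62 and 7.99 in NSCL61-sox11 and 8.25 and 8.39 in NSCL61, a difference of -0.51 (SE 0.14, limma adjusted p = 0.0566). Plk3 was called downwards in 7 of 14 alternatives, among them the brightest 40% of probe sets, quantile normalization, median centring and both control scalings. The single NSCL61-sox11 array left without array 2 gave -0.70 (limma adjusted p = 0.00834), and over the 13 alternatives without a replicate block the adjusted p ran from 0.000716 to 0.253. Ccng2, a cyclin linked to quiescence and driven by FOXO factors, read 9.11 and 9.67 in NSCL61-sox11 and 9.72 and 9.98 in NSCL61. The difference was -0.46 (SE 0.19, limma adjusted p = 0.152). Ccng2 was called in 4 of 14 alternatives, among them both control scalings and the fit without NSCL61-sox11 array 2 (-0.74, limma adjusted p = 0.00723), and without a replicate block its adjusted p ran from 0.00143 to 0.492. Its second probe set fell by 0.60 (SE 0.15, limma adjusted p = 0.0398).

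Ccng1, a p53 target that recruits a phosphatase to Mdm2, was not called on any of its 3 tested probe sets. It read 9.66 and 9.77 in NSCL61-sox11 and 9.52 and 9.46 in NSCL61, a difference of 0.23 (SE 0.08, limma adjusted p = 0.118). Gadd45a, a stress sensor that acts on MAP kinases, read 6.60 and 7.09 in NSCL61-sox11 and 6.14 and 6.46 in NSCL61. The difference was 0.54 (SE 0.19, limma adjusted p = 0.104). With the single NSCL61-sox11 array 2 against both NSCL61 arrays, Gadd45a differed by 0.79 (limma adjusted p = 0.0182), within a range of 0.0182 to 0.713 over the alternatives without a replicate block. Btg1, an antiproliferative partner of the mRNA deadenylase, differed by 0.17 (SE 0.06, limma adjusted p = 0.120). Fbxw7, the ubiquitin ligase adaptor for cyclin E and Myc, differed by -0.18, and the mitotic gene Gtse1 by 0.06.

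Of the 11 genes of cell death and survival signalling, 3 rose, 7 were not called and Eda2r was not tested. Perp, a membrane protein of desmosomes that also acts in apoptosis, read 7.31 and 6.83 in NSCL61-sox11 and 4.10 and 4.43 in NSCL61. Both NSCL61 arrays lay below the filter level and both NSCL61-sox11 arrays above it. The rise was 7.00-fold, or 2.81 on the log2 scale (SE 0.19, limma adjusted p = 0.000435). The size is uncertain because the NSCL61 level is near the floor of the array. It was called in each of the 13 alternatives that could include it, with log2 fold changes of 2.40 to 3.05.

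Pmaip1 encodes Noxa, a BH3-only protein that neutralises the survival factor Mcl1. It read 8.19 and 8.06 in NSCL61-sox11 and 6.16 and 6.40 in NSCL61, and the arrays of a line lay close together. Pmaip1 rose 3.60-fold, by 1.85 on the log2 scale (SE 0.12, limma adjusted p = 0.000362). It was called in each of 14 alternatives, with log2 fold changes of 1.44 to 1.97.

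Of the death receptor genes, Fas rose and Tnfrsf10b was called on 1 of its 2 probe sets. Fas read 6.17 and 6.23 in NSCL61-sox11 and 4.88 and 5.30 in NSCL61, and it rose 2.16-fold, by 1.11 (SE 0.15, limma adjusted p = 0.00581). Fas averaged 5.09 in NSCL61, below 5.15, and was tested through its level in NSCL61-sox11, so the size is uncertain. Tnfrsf10b, the receptor of the death ligand TRAIL, read 5.91 and 6.11 in NSCL61-sox11 and 5.73 and 5.67 in NSCL61, a difference of 0.32 (SE 0.11, limma adjusted p = 0.112). Its second probe set read 5.63 and 5.76 in NSCL61-sox11 and 4.99 and 5.07 in NSCL61. That probe set rose by 0.66 (SE 0.11, limma adjusted p = 0.0104), but it averaged below 5.15 in NSCL61 and was tested through its level in NSCL61-sox11. Eda2r, a receptor of the ectodysplasin family, lay at 3.47 and 3.59 in NSCL61-sox11 and at 3.52 and 3.42 in NSCL61, below the filter level on each array.

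The remaining genes of this group were measured in both lines and not called. Pidd1, the scaffold of a caspase-activating platform, differed by -0.28 (SE 0.14, limma adjusted p = 0.228). Aen, an apoptosis-enhancing nuclease, had 4 probe sets with differences of -0.32 to -0.27, none of them called. Aen was called with hybridisation control scaling and with the single NSCL61-sox11 array 2 against both NSCL61 arrays (-0.52, limma adjusted p = 0.0131), and its adjusted p ran from 0.0131 to 0.925 over the alternatives without a replicate block. Zmat3, an RNA-binding protein of splicing control, differed by -0.28, and Phlda3, an Akt inhibitor, by -0.05. Ei24, a protein of the endoplasmic reticulum, differed by 0.27 (SE 0.09, limma adjusted p = 0.105).

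Metabolic and secretory targets divided, with Sesn1 and Pltp up, Tigar down, and Sesn2 and Dcxr not called. Sesn1, a sestrin that restrains mTORC1, read 9.20 and 9.51 in NSCL61-sox11 and 7.99 and 8.46 in NSCL61. The lines did not overlap on any of its 3 tested probe sets, and all 3 were called, with rises of 1.13 to 1.29 on the log2 scale. On the brightest the rise was 2.18-fold (SE 0.18, limma adjusted p = 0.00916). Sesn2, the sestrin induced mainly by the integrated stress response, differed by 0.12 (SE 0.09, limma adjusted p = 0.426).

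Pltp, a phospholipid transfer protein of lipoproteins, read 8.85 and 9.25 in NSCL61-sox11 and 7.78 and 8.11 in NSCL61. The rise was 2.15-fold, or 1.10 (SE 0.17, limma adjusted p = 0.00821), and 1.56 on its second probe set (limma adjusted p = 0.00219). Without NSCL61 array 1 the Pltp call was lost (0.94, limma adjusted p = 0.0545), within a range of 1.90e-05 to 0.111 over the 13 alternatives without a replicate block. Tigar, which lowers glycolytic flux, read 7.51 and 7.54 in NSCL61-sox11 and 8.14 and 7.94 in NSCL61. It fell by 0.51 (SE 0.11, limma adjusted p = 0.0221), and its other probe sets fell by 0.80 and 0.59, so each of 3 was called. The Tigar call on the brightest was lost without NSCL61 array 1 (-0.41, limma adjusted p = 0.149) or array 2 (-0.61, limma adjusted p = 0.0587), with adjusted p of 0.000760 to 0.149 over those alternatives. Dcxr, a carbonyl reductase, differed by 0.19 (SE 0.12, limma adjusted p = 0.356).

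Of the genes of DNA repair, nucleotide supply and the ribosome, Rrm2b fell and Ercc5 and Rps27l were not called. Rrm2b encodes the p53-inducible subunit of ribonucleotide reductase, which supplies nucleotides for repair. It read 7.84 and 8.07 in NSCL61-sox11 and 8.35 and 8.42 in NSCL61, and fell by 0.43 (SE 0.11, limma adjusted p = 0.0429). This call lies at the threshold: it was lost without NSCL61 array 1 (-0.47, limma adjusted p = 0.162), without NSCL61 array 2 (-0.40, limma adjusted p = 0.213) and without NSCL61-sox11 array 1 (-0.32, limma adjusted p = 0.109). It was also lost without a level filter (limma adjusted p = 0.0517), and over the 13 alternatives without a replicate block the Rrm2b adjusted p ran from 0.00337 to 0.213. Its other 2 tested probe sets differed by -0.55 and -0.25 and were not called. With the mean of its tested probe sets the Rrm2b call was lost (limma adjusted p = 0.086). It was lost too without the variance trend of limma (limma adjusted p = 0.0509). Ercc5, a nuclease of nucleotide excision repair, read 7.39 and 7.47 in NSCL61-sox11 and 7.09 and 7.17 in NSCL61, a difference of 0.30 (SE 0.10, limma adjusted p = 0.0856). Rps27l, a ribosomal protein gene with a close paralogue that the probes may also detect, differed by 0.06 at levels of 12.51 and 12.38 in NSCL61-sox11 and 12.46 and 12.32 in NSCL61.

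Scaling touched these calls unequally. With poly-A scaling Perp (2.40), Pmaip1 (1.44) and Tigar (-0.92) were called in the same direction as on the deposited scale. The calls of Plk2 (0.68, limma adjusted p = 0.104), Fas (0.70, limma adjusted p = 0.0961), Sesn1 (0.72, limma adjusted p = 0.0943), Pltp (0.70, limma adjusted p = 0.111), Cdkn1a (0.38, limma adjusted p = 0.319) and Rrm2b (-0.84, limma adjusted p = 0.0550) were lost, with no change of sign. Over the other alternatives the limma adjusted p was at most 0.0126 for Plk2, 0.0205 for Fas and 0.0436 for Sesn1, each in the fit without NSCL61 array 1.

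**Figure D3:**
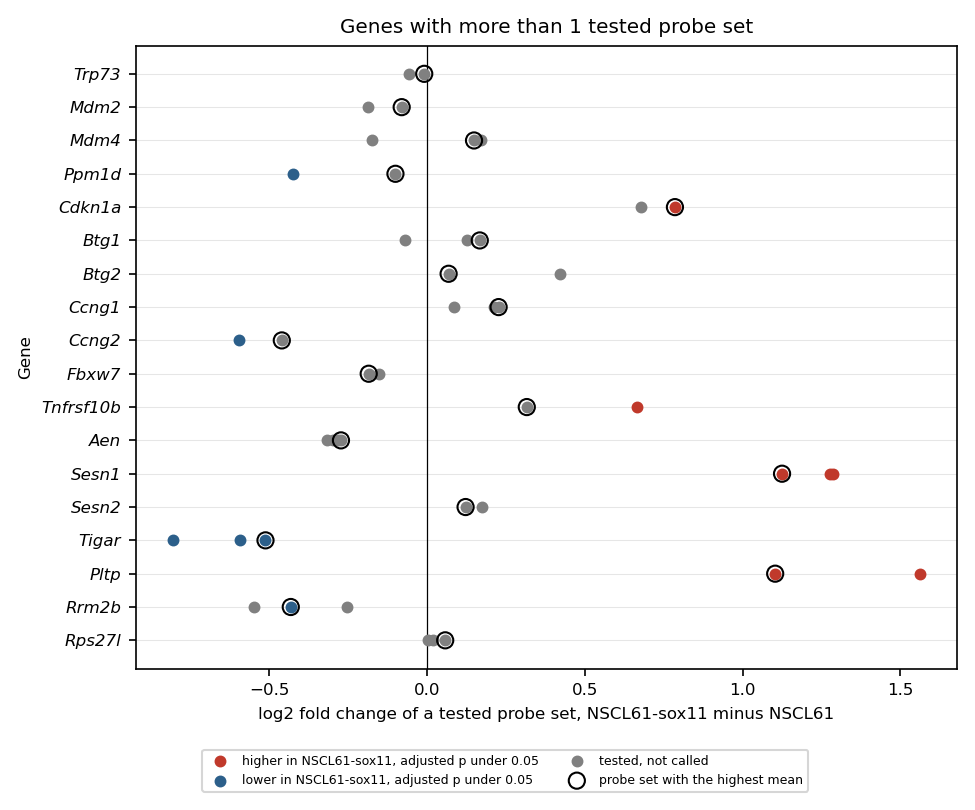
Log2 fold change of every tested probe set of the 18 genes with more than 1, in red or blue where called and grey where not, with a ring around the probe set with the highest mean. Sesn1 has 3 called probe sets on the right and Tigar 3 on the left, while Ppm1d, Ccng2 and Tnfrsf10b were called only on a probe set without the ring.

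Btg2 and Trp53inp1 varied more between arrays of a line than between the lines. Btg2, an early response gene that holds back progenitor proliferation, read 7.31 and 8.50 in NSCL61-sox11 and 7.57 and 8.11 in NSCL61. Its difference between the lines was 0.07 (SE 0.38, limma adjusted p = 0.926). On the second Btg2 probe set it was 0.42 (SE 0.38, limma adjusted p = 0.507). Trp53inp1, a stress-induced protein of autophagy and transcription, read 5.11 and 6.49 in NSCL61-sox11 and 4.69 and 5.75 in NSCL61, a difference of 0.58 (SE 0.50, limma adjusted p = 0.486). In each line array 2 exceeded array 1, by 1.19 and 0.54 for Btg2 and by 1.39 and 1.06 for Trp53inp1 in NSCL61-sox11 and NSCL61. On the second Btg2 probe set the excess was 1.14 and 0.66. On the second Trp53inp1 probe set, below the level filter, it was only 0.22 and 0.44. Only 0.344% of genes tested differed by at least 1 between the NSCL61-sox11 arrays, and 0.206% between the NSCL61 arrays. An excess of at least 0.5 on array 2 in both lines was seen for 133 genes, or 1.02% of those tested. The labels give no batch for these arrays, and the part of one in the values of Btg2 and Trp53inp1 was not tested.

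**Figure D4:**
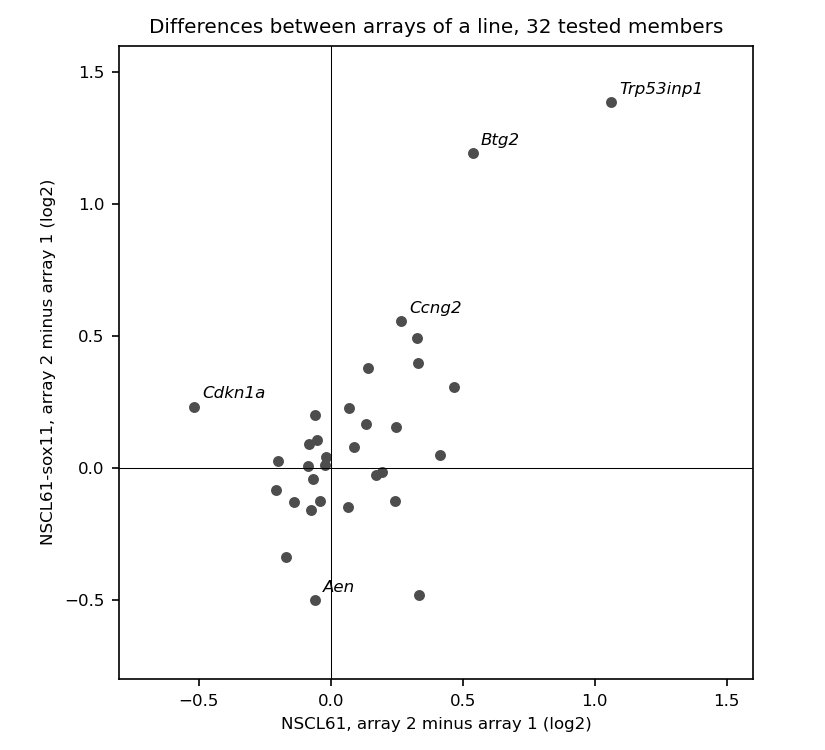
Array 2 minus array 1 in NSCL61-sox11 (vertical axis) against the same in NSCL61 (horizontal axis), in log2 units, for the 32 tested genes. Genes that differ by at least 0.5 in a line are named. Trp53inp1, at 1.39 and 1.06, and Btg2, at 1.19 and 0.54, lie apart at the upper right.

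Other genes of the pathway, from lists that share no gene with the set above, were read in the same fit. Of 22 further p53 targets tested, 5 rose, 3 fell and 14 were not called, with a median of 0.22. Of all genes tested, 10.0% were called upwards and 9.19% downwards. The lists were chosen with earlier results of these data known. The metastasis suppressor gene Cd82 read 9.51 and 9.62 in NSCL61-sox11 and 7.55 and 7.81 in NSCL61, a rise of 1.89 (SE 0.12, limma adjusted p = 0.000293). The inflammatory caspase gene Casp1 rose by 1.48 (SE 0.12, limma adjusted p = 0.000733). In the other direction Cgref1, a growth regulator with EF-hands, read 5.98 and 5.78 in NSCL61-sox11 and 7.77 and 7.94 in NSCL61, and fell by 1.98 (SE 0.12, limma adjusted p = 0.000278). Igfbp3, a binding protein of insulin-like growth factors, fell by 1.74 (SE 0.18, limma adjusted p = 0.00195).

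Of 22 upstream kinases, cofactors and ubiquitin ligases of p53, 1 fell and 21 were not called, with a median of 0.00. This was the ubiquitin ligase gene Trim24, at -0.61 (SE 0.11, limma adjusted p = 0.0140), whose call was lost without NSCL61 array 2 (-0.49, limma adjusted p = 0.110). As background, p21 represses many cell cycle genes through the DREAM complex. Of 16 such genes, none rose, 2 fell and 14 were not called, with a median of 0.00. Beside both lists, 10.0% of all genes tested were called upwards and 9.19% downwards. Cenpf, a kinetochore gene, fell by 0.43 (SE 0.07, limma adjusted p = 0.0117), and this was lost without NSCL61 array 1 (limma adjusted p = 0.119) or array 2 (limma adjusted p = 0.105). The mitotic kinase gene Plk1 fell by 0.29 (SE 0.07, limma adjusted p = 0.0435) and was lost in 7 of 14 alternatives.

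**Figure D5:**
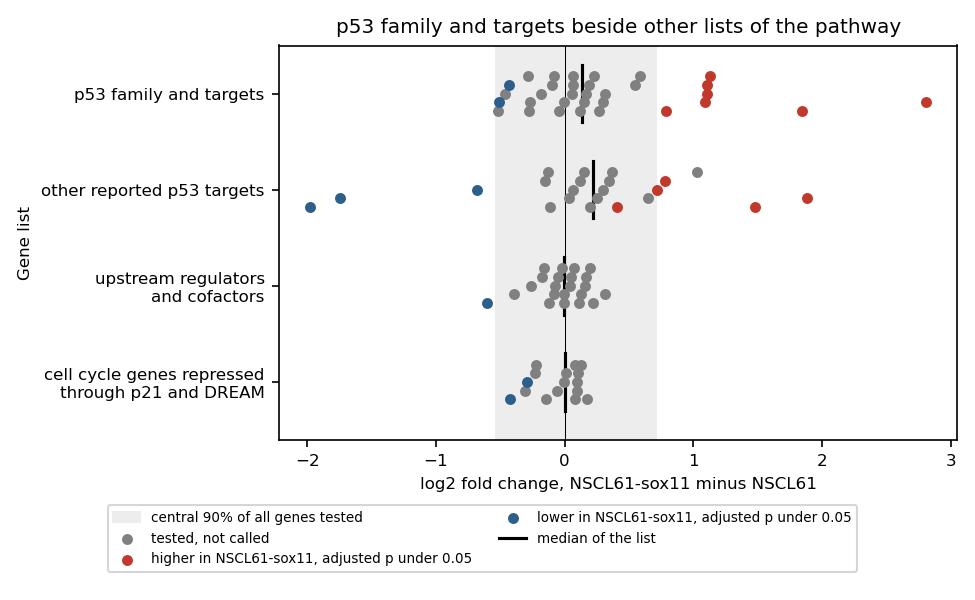
Log2 fold change of each tested gene of the p53 family and target set (top) and of the lists of further p53 targets, upstream regulators and p21-repressed cell cycle genes. Red and blue points are called, black bars are medians, and grey shading spans the central 90% of all genes tested, from -0.53 to 0.71. The medians are 0.14, 0.22, 0.00 and 0.00 from top to bottom.

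Perp and Trp63 are known from epithelium and Pltp, Fas and Cd82 from many cell types, so markers of other cells were read on the same arrays. Of 8 epithelial markers, 3 passed the filter, none rose and Krt8 fell, and their summed linear signal was 366 and 366 in NSCL61-sox11 against 401 and 381 in NSCL61. The junction genes Cdh1 and Dsp lay between 2.72 and 3.18 on each array of both lines, and Krt14, Krt18 and Cldn7 were also below the filter. Epcam read higher, at 7.19 and 7.18 in NSCL61-sox11 and 7.09 and 6.93 in NSCL61. Krt5 read 6.03 and 5.99 in NSCL61-sox11 and 6.08 and 6.10 in NSCL61. Neither Epcam nor Krt5 was called. Of 7 markers of fibroblasts and meninges 6 were tested and 5 rose, and their summed signal was 2669 and 4748 in NSCL61-sox11 against 514 and 819 in NSCL61. The 5 were Col1a1, Col1a2, Pdgfrb, Postn and Igfbp2, while Dcn was not called and Lum lay at 3.73 to 4.11 on the 4 arrays. Among all genes tested, 10.0% were called upwards. The part of the fibroblast and meninges list in the changes above was not tested. Markers of microglia and blood (2 of 6 tested) and of endothelium (3 of 5 tested) gave 0 calls in limma.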

How the data were processed

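Total RNA of 2 samples per line was labelled with biotin and hybridised to Affymetrix M430_2 arrays, per the labels. The deposited values of the authors were read as log2 levels because of their range, so the log base is inferred. The sources used here do not give their summarisation or normalization. Array medians were 5.74 to 5.78, and no rescaling was done. Gene symbols come from GEO's annotation of the platform, which gives 1 symbol for 34945 probe sets. The deleted gene is not reported here.

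Differences were tested, two-sided, in R 4.3.3 with limma 3.58.1 (lmFit and trended eBayes) over 27022 probe sets, with 2 residual degrees of freedom. An exact permutation test of 2 arrays against 2 cannot go below 0.333. The script was tested on simulated data with independent noise drawn from limma's own variance model. This checks the code and not the calls made here. All 35 genes of the set were named by rule, with up to 4 called genes of each other list. Members and lists were chosen with earlier results of these data known. Alternatives changed the filter, scaling, variance trend, probe set choice, replicate block, threshold and arrays used. Promoters are from RefSeq, GRCm38.p6. Figures used matplotlib 3.10.9.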

Additional observations from a re-analysis of the deposited data

How the results depend on the processing

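Of the 34 genes, 7 were called higher and 2 lower in the fit reported. Higher calls numbered 2 with poly-A scaling and 14 with the replicate block, and 6 to 8 when 1 array was left out. Lower calls numbered 7 with hybridisation control scaling or the replicate block, 1 without a level filter, without the variance trend or with the mean of probe sets, 0 at 2-fold, and 0 to 4 when 1 array was left out (4 with NSCL61-sox11 array 2 omitted, 0 with either NSCL61 array omitted). Among all genes, 1308 were higher and 1202 lower. Higher calls numbered 303 with poly-A scaling, 702 with hybridisation scaling, 2389 with the replicate block, 416 at 2-fold and 533 to 1376 when 1 array was left out (533 and 637 on omitting NSCL61 array 1 and array 2). Lower calls numbered 2336 with hybridisation scaling, 2441 with the replicate block, 170 at 2-fold and 307 to 1316 when 1 array was left out (375 and 307 on omitting NSCL61 array 1 and array 2). Of the further p53 targets 2 to 10 were higher and 2 to 3 lower over the alternatives, of upstream genes 0 to 3 and 0 to 4, and of p21-repressed genes 0 and 0 to 5.

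Array numbers 1 and 2 appear in both lines, but nothing states that they mark a shared culture or day, so the reported fit has no block. Deviations from the line means of same-numbered arrays correlated at 0.41, a hint from the data and not from the design. The block fit has 1 residual degree of freedom and gained calls for 12 of the genes, among them Gadd45a, Plk3, Ccng2 and Trp53inp1. No called gene changed sign under any alternative. Of the genes not called, 11 took the other sign with poly-A scaling and 7 with hybridisation control scaling. The number of arrays limits the precision, and levels near 5.15 have uncertain fold changes. The cause of these shifts was not tested.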
